A study of Mus musculus with 25 samples.

Results

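The Wnt pathway target genes Axin2, Lgr5, Nkd1, Rnf43, Notum and Sp5 and the transcription factor genes of the TCF/LEF family, Tcf7, Tcf7l1, Tcf7l2 and Lef1, were followed in the mouse islet cell lines αTC1 (alpha TC1 clone 6, a glucagon-producing line) and βTC6 (beta-TC-6, an insulin-producing line). The genes were taken by their symbol, which gave 10 of the 24439 genes in the RNA-seq tables. The open chromatin regions were the ATAC-seq peaks annotated by the authors with a member as the nearest gene, which gave 33 of 65053 consensus peaks. Because the genes were proposed with results of these data in view, they count as selected on the RNA-seq levels and peak values of the pure lines, and their differences between the lines are a description, in which calls, standard errors and counting intervals are given without p-values and support nothing by themselves. RNA-seq libraries came from 3 replicates of each line. ATAC-seq libraries, in which a transposase marks accessible DNA, came from 5 replicates of each line and from 9 mixtures holding 10% to 90% αTC1 cells, each made once. Both are tumour-derived, immortalized lines without a stated treatment, αTC1 is a single clone, and each line was grown in its own medium, so that line and medium cannot be told apart. The sources do not say whether replicates were separate cultures, and the spread between them may be technical.

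Wnt proteins bind Frizzled and Lrp receptors at the cell surface, which stops a destruction complex built on Axin from degrading β-catenin. β-Catenin then enters the nucleus and joins DNA-bound TCF/LEF factors, which otherwise hold target genes down together with Groucho (Tle) corepressors. Several targets feed back on the pathway: Axin2 and Nkd1 act on the cytoplasmic machinery, Rnf43 removes Frizzled receptors from the membrane, and the secreted enzyme Notum takes an essential lipid off Wnt proteins. Lgr5 is a receptor for R-spondins and Sp5 a zinc finger factor at TCF-bound genes. Tcf7l2 is known in islets as a gene near which variants are associated with type 2 diabetes.

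Only Axin2 and Sp5 had the core TCF/LEF letters CTTTGAT in a peak at their promoter, and these stretches are printed because both genes were read from RNA in 1 line and at 0 counts in the other. The letters were searched on both strands of the mm9 sequence and stand in capitals. In Axin2 they began 78 bases downstream of the annotated start, in an exon annotated as UTR, and again 883 bases downstream, in an intron. In Sp5 they began 104 bases upstream of the start and 89 bases downstream, in an exon annotated as UTR. All sequences are plus strand, which is the coding strand of both genes.
Axin2 +78, chr11:108781730-108781759: agccggctgcgCTTTGATaaggtcctggca
Axin2 +883, chr11:108782535-108782564: cggccggcgcgCTTTGATgtgcggggcggc
Sp5 upstream, chr2:70312780-70312979: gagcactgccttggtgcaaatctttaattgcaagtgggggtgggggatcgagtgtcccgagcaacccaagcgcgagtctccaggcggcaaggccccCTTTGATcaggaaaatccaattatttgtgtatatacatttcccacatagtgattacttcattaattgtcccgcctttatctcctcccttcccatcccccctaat
Sp5 +89, chr2:70313058-70313087: gagccgctattCTTTGATgattgggtagcg

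The same letters occurred in 17.2% of windows as long as the Axin2 promoter peak (1196 bases) and in 10.8% of windows as long as the Sp5 promoter peak (766 bases), each centred on the 65053 peaks, and in 10 and 5 of the 33 windows so centred on the members' peaks. Within the peaks themselves the letters were found once more, in a Tcf7l2 peak that is described below as repetitive, and 30 of the 33 peaks held none. In the central 200 bases, CTTTGAT lay in 1 of the 33 peaks against 2.46% of all peaks, the E-box CAGCTG in 12 against 17.2%, the forkhead letters TGTTTAC in 3 against 6.32% and the homeodomain core TAATTA in 0 against 6.92%. Among the 300-base RefSeq promoters (GRCm38.p6), 3.73% of 32851 held CTTTGAT, and of 14 promoters of 8 members that of Sp5 did. These are matches of letters and say nothing of what is bound there.

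The RNA-seq libraries held 21954031 to 26033482 expected counts, and 3 counts per library are taken as the floor of detection. Reads in consensus peaks ran from 6903416 to 8300868 in αTC1, from 4397851 to 10374903 in βTC6 and from 5277983 to 7294832 in the mixtures. The lines carried their defining markers: all 6 beta cell markers reached an FPKM (fragments scaled to transcript length and library size) of at least 1 in every βTC6 library and 1 of 6, Nkx6-1, did so in αTC1, while 6 of 6 alpha cell markers did so in αTC1 and 4 of 6 in βTC6. Summed FPKM of the beta cell markers was 13.6 to 14.9 in αTC1 against 25376 to 37992 in βTC6. That of the alpha cell markers was 13272 to 15355 in αTC1 and still 738 to 1862 in βTC6. There the glucagon gene Gcg was at 172 to 267 FPKM. The alpha cell marker Ttr overlapped between lines, with means of 835 FPKM in αTC1 and 1116 in βTC6. The delta cell hormone gene Sst was read at 207 to 325 FPKM in βTC6 and at 0 in αTC1, whereas Hhex, the other delta cell marker, was at 0.0867 FPKM in αTC1 and 0.00667 in βTC6 on average. The PP cell hormone gene Ppy was uneven, at 50.8, 3.7 and 23.4 FPKM in βTC6 and at most 0.1 in αTC1. The part of such markers in the results below was not tested. Some libraries stood apart from others of their line: by chi-square per gene, RNA-seq replicate 3 of αTC1 differed from replicates 1 and 2 by 26.3 and 27.7 where these differed by 2.03, and the βTC6 replicates by 16.4 to 36.2. By chi-square per peak, ATAC-seq replicates 4 and 5 of αTC1 differed from replicates 1 to 3 by 9.26 to 10.5, where these differed among themselves by 2.06 to 2.16, and in βTC6 the values were 4.38 to 8.17 and 2.26 to 2.54.

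Axin2 was the only member expressed above an FPKM of 1, and only in βTC6. The other 9 genes were read at low levels. By expected counts, not scaled by library size, 2 of these were higher in βTC6, 4 were higher in αTC1 and 3 overlapped between lines. Over all genes with a count, 34.5% had βTC6 above without overlap and 25.9% αTC1 above. Among the targets, Axin2 and Notum were read only in βTC6, and Sp5 only in αTC1. Nkd1 and Rnf43 were higher in αTC1. Lgr5 overlapped between lines in counts, although its FPKM values did not, at 0.2 to 0.3 in αTC1 and 0.14 to 0.15 in βTC6.

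Axin2, a scaffold of the destruction complex that is itself a widely used target gene, had 276, 255 and 257 expected counts in the βTC6 libraries and 0, 0 and 0 in αTC1. Its level was 2.61 ± 0.127 FPKM (SD, n = 3) in βTC6, at least 84.9-fold higher than the floor of 3 counts per library allows in αTC1. The groups did not overlap, and the gene was called higher in βTC6 by edgeR (FDR under 5%, log2 fold change beyond 2 in either direction), as were 10.2% of the 12195 genes tested, against 4.08% called higher in αTC1. Genes entered that test when every replicate of at least 1 line reached an FPKM of 1, which left Axin2 alone of the members. It entered through βTC6, where it is high, so that its call is no evidence of its own. In these bulk samples, fewer expressing cells and less RNA per cell cannot be told apart. On the log2(FPKM + 1) scale its difference was 1.85, under the fold-change threshold, since the added 1 shrinks changes of genes at this level.

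Notum had 5.78, 11 and 7 expected counts in βTC6 and none in the αTC1 libraries. Its βTC6 level was 0.167 ± 0.0737 FPKM, at least 2.56-fold above the αTC1 floor. Sp5 showed the opposite order with 20, 20 and 22 counts in αTC1 and 0 in every βTC6 library. At 0.413 ± 0.0208 FPKM in αTC1, it was at least 7.09-fold lower in βTC6. The 3 genes thus had no count at all in 1 line, although Notum lay close to the floor in the other.

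Rnf43, the ubiquitin ligase that removes Frizzled receptors, had 8, 7 and 13 counts in αTC1 and 2, 0 and 1 in βTC6. The ratio of summed counts scaled by library size was 9.60 in favour of αTC1, with an exact 95% counting interval of 2.96 to 49.3. Nkd1, an inhibitor that acts on Dishevelled, had 6, 2 and 8 counts in αTC1 and 1, 1 and 0 in βTC6, a ratio of 8.23 (1.93 to 73.8). Their levels in αTC1 were 0.113 ± 0.0416 and 0.0567 ± 0.0321 FPKM, and the groups did not overlap. Lgr5 had 26.67, 20.16 and 17.33 counts in αTC1 and 17, 18 and 12 in βTC6, and the ratio of 1.40 for αTC1 over βTC6 had an interval of 0.946 to 2.09. Without αTC1 replicate 3 the Lgr5 ratio was 1.58 (1.03 to 2.42), and the Rnf43 ratio was 18.96 without βTC6 replicate 1 and 6.38 without βTC6 replicate 2. Such intervals cover counting error only.

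The TCF/LEF genes went in opposite directions. Tcf7l2 had 29, 16 and 72 counts in αTC1 and 0, 1 and 2 in βTC6, so that the αTC1 libraries varied widely and still stayed above all of βTC6. Its level was 0.683 ± 0.379 FPKM in αTC1 and 0.03 ± 0.03 FPKM in βTC6, and the ratio of summed counts scaled by library size was 40.1 (13.4 to 197). It was 23.7 (7.62 to 119) without αTC1 replicate 3, which held 72 of the 117 αTC1 counts, 26.4 without βTC6 replicate 1 and 81.4 without βTC6 replicate 3. Tcf7 had 2, 4 and 6 counts in αTC1 and 18, 32 and 26 in βTC6, which is a ratio of 6.16 for βTC6 over αTC1 (3.33 to 12.4). It was the member with the second highest level in βTC6, at 0.407 ± 0.0907 FPKM. Tcf7l1, often a repressor, had 5, 1 and 1 counts in αTC1 and 5 in each βTC6 library, a ratio of 2.08 for βTC6 over αTC1 (0.7998 to 6.04) that was 5.04 (1.17 to 45.4) without αTC1 replicate 1. Lef1 had 5.04, 0 and 0.99 counts in αTC1 and 2.99, 0 and 1.14 in βTC6, at or near the floor in both lines. Neither Tcf7l1 nor Lef1 differed beyond the spread between libraries.

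By level per transcript length, the order in αTC1 was Tcf7l2, Sp5, Lgr5 (0.26 ± 0.0529 FPKM), Rnf43, Tcf7, Nkd1, Tcf7l1 and Lef1, with Axin2 and Notum at 0. Tcf7l2 and Sp5, and the 5 genes from Rnf43 down, did not differ from their neighbours beyond their spread. In βTC6 the order was Axin2, Tcf7, Notum, Lgr5 (0.143 ± 0.00577 FPKM) and Tcf7l1, with Tcf7l2, Lef1, Rnf43 and Nkd1 at 0.03 FPKM or less and Sp5 at 0. Notum and Lgr5 did not differ there beyond their spread.

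When edgeR was run on all 19570 genes with at least 1 count, 3 members (Axin2, Notum and Tcf7) were called higher in βTC6 and 4 (Tcf7l2, Sp5, Rnf43 and Nkd1) higher in αTC1. Over all these genes 12.8% were called higher in βTC6 and 5.21% in αTC1. The same 7 members were those whose counts did not overlap between lines. In this fit the log2 fold change, βTC6 over αTC1, was 2.54 (standard error 0.49) for Tcf7, -5.19 (0.79) for Tcf7l2 and -0.55 (0.39) for Lgr5. The median over the 10 genes was -0.60 and over all genes 0.085; 3 of the 10 values are fitted against a line at 0 counts.

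**Figure D1:**
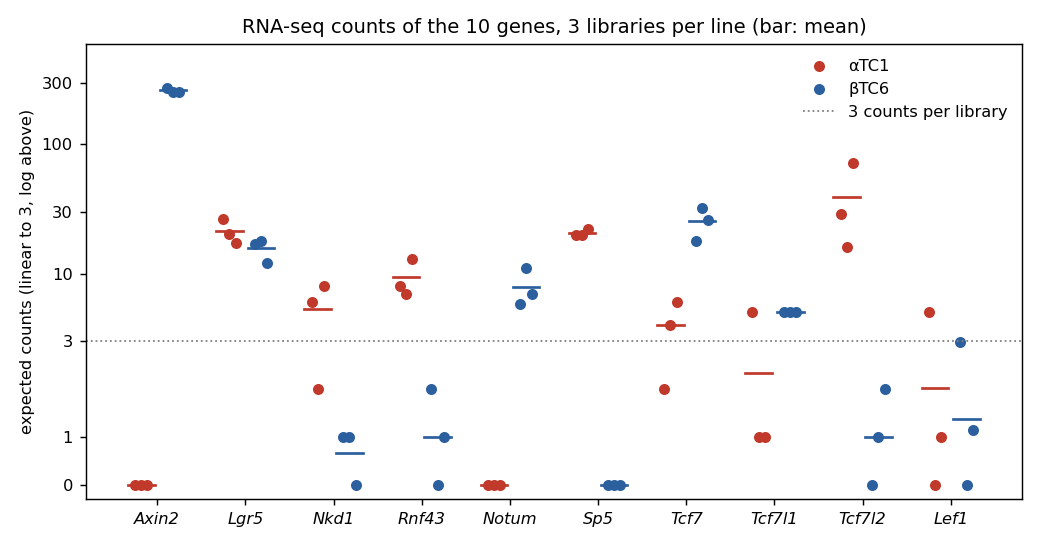
Expected RNA-seq counts (vertical axis, linear to 3 and logarithmic above) of the 10 genes in each of 3 αTC1 (red) and 3 βTC6 (blue) libraries, with bars at the means and a dotted line at 3 counts. Axin2 stands at 255 to 276 in βTC6 and at 0 in αTC1, Sp5 at 20 to 22 in αTC1 and at 0 in βTC6, and the βTC6 libraries of Tcf7l2, Nkd1 and Rnf43 lie under the dotted line.

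Open chromatin at these genes also went both ways. Of the 33 peaks, 3 were called more open in βTC6 (2 of Axin2, 1 of Lgr5) and 2 in αTC1 (1 of Sp5, 1 of Lgr5), by limma on log2(normalized read count + 1) with the thresholds used for genes. Over all peaks 12.9% were called more open in βTC6 and 5.38% in αTC1. Quantile normalization on top of the authors' scaling turned the split to 2 and 4 peaks among the members and moved the βTC6 share of all calls from 70.6% to 52.5%. The values did not overlap between lines in 25 of the 33 peaks, with βTC6 above in 9 and αTC1 above in 16, next to 33.7% and 30.2% of all peaks. The median log2 fold change was -0.69 over the 33 peaks and 0.0011 over all peaks. A normalized read count is the authors' count of reads in a peak after scaling to the effective library size. The lowest value of the table is 1 read, so that a closed peak also stands at 1 read.

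The Axin2 promoter peak (chr11:108781403-108782598, with its centre in an Axin2 intron 0.338 kb from the start site) had 35.1, 29.5, 29.1, 31.5 and 32.3 normalized reads in βTC6. All 5 αTC1 libraries held 1 read there. The mean of 31.5 ± 2.41 (SD, n = 5) in βTC6 was at least 73.8-fold above the floor of 3 reads in αTC1. A second Axin2 peak 118 kb upstream, in an intron of Ccdc46 (chr11:108662935-108663415), likewise had 1 read in every αTC1 library and 5.14 to 10.5 normalized reads in βTC6, at least 18.3-fold above the floor. Both kept log2 fold changes over 2 in replicates 1 to 3 alone (4.81 and 3.02) and in replicates 4 and 5 alone (4.85 and 2.75), for which the study's quality table computes the mitochondrial share against different totals. The central 200 bases of the distal peak held none of the letters searched for above and are printed as the only distal Axin2 region that was open in a single line.
Axin2 distal, chr11:108663075-108663274: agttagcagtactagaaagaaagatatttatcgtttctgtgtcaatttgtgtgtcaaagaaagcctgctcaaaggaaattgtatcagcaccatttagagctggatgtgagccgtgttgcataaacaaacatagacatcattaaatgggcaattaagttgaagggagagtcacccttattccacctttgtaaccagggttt

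The Axin2 locus lay in a longer stretch without αTC1 reads. From chr11:108459224-111177459, over 2.72 Mb, 59 of 60 consecutive peaks had 1 read in each of the 5 αTC1 libraries, as had 1.17% of all peaks, and 56 of the 60 were called more open in βTC6. The stretch was drawn outward from the Axin2 promoter peak for as long as every αTC1 library stood at 1 read. The Axin2 peak 91.5 kb downstream was passed over, so that 59 of 60 follows from this rule. Neighbouring genes were at or near 0 counts in αTC1 as well: Prkar1a, a regulatory subunit of protein kinase A, had 0, 0 and 1 counts against 28663 to 40365 in βTC6, and Gna13, a G protein subunit, had 0 in all 3 against 2437 to 2776. Absence of the DNA and absence of open chromatin and RNA cannot be told apart in these tables. The exception was the third Axin2 peak, 91.5 kb downstream of the start and intergenic (chr11:108872959-108873409). It had 507 to 614 normalized reads in αTC1 and 205 to 264 in βTC6, and ranked 21 among all peaks by its mean. Parts of it matched other places in mm9, the longest over 226 bases at 83.2% identity on chromosome 17. Some shorter matches were closer, such as 73 bases at 97.3% on chromosome 13 and 43 bases at 100% on chromosome 7. Whether the reads of this peak came from its own place was not tested.

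**Figure D2:**
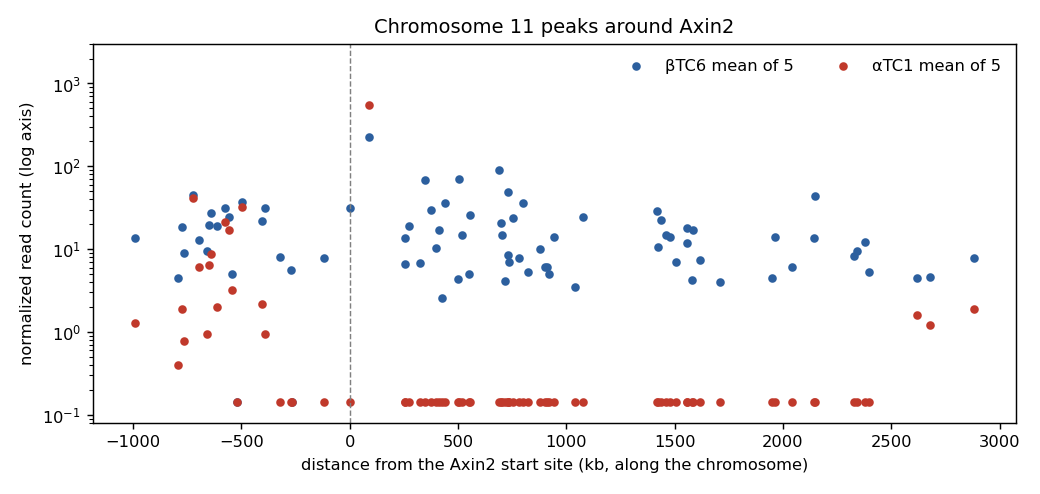
Mean normalized read count (log axis) of chromosome 11 peaks in αTC1 (red, n = 5) and βTC6 (blue, n = 5) by distance from the Axin2 start site (dashed line). The αTC1 means lie at the level of 1 read over 59 of 60 peaks of the stretch, while the peak 91.5 kb downstream is high in both lines, at 550 in αTC1 and 226 in βTC6.

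Sp5 had 6 peaks, and αTC1 was above βTC6 in 5 of them without overlap. The largest difference was in the intergenic peak 30.5 kb upstream (chr2:70282040-70282920), with 20.3, 23.0, 20.4, 20.2 and 18.3 normalized reads in αTC1 and 1.42, 1.44, 1.49, 0.428 and 0.0939 in βTC6. Its log2 fold change was -3.52 (standard error 0.24), and it was the most strongly closed in βTC6 of all the members' peaks. The peak 137 kb upstream, in an intron of Myo3b, was the most open of Sp5, at 50.3 ± 4.07 normalized reads for αTC1 against 17.1 ± 2.80 for βTC6 (log2 fold change -1.51). The promoter peak of Sp5 (chr2:70312618-70313383) was open in both lines (6.50 to 12.9 normalized reads in αTC1, 4.10 to 7.24 in βTC6), and its groups overlapped although no Sp5 RNA was read in βTC6. The central 200 bases of the peak 30.5 kb upstream are printed as the region with the strongest αTC1 preference, with the E-box letters in capitals.
Sp5 distal, chr2:70282380-70282579: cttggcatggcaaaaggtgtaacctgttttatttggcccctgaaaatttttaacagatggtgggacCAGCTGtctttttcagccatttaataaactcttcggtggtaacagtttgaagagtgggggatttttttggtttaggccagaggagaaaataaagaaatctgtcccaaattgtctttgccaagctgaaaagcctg

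Lgr5 had distal peaks called in opposite directions. The peak 76.9 kb upstream (chr10:115101289-115102141) had 4.76, 6.18, 1.35, 2.59 and 2.60 normalized reads in αTC1 and 11.4, 18.3, 11.5, 21.3 and 20.8 in βTC6, a log2 fold change of 2.03 (standard error 0.27) that lies just past the threshold. The peak 104 kb upstream (chr10:115128953-115129404) had 4.90, 8.85, 5.41, 6.96 and 10.3 in αTC1 and 0.426, 1.03, 1.76, 0.428 and 0.657 in βTC6, a log2 fold change of -2.16 (0.24). In replicates 1 to 3 alone they came to 1.64 and -1.85, under the threshold, and in replicates 4 and 5 alone to 2.62 and -2.62. Leaving out αTC1 replicate 3, 4 or 5 or βTC6 replicate 2, 4 or 5 took the peak at 76.9 kb to between 1.83 and 1.99. The promoter peak was open in both lines and higher in βTC6, with 42.2 ± 4.96 normalized reads against 18.9 ± 1.86 (log2 fold change 1.11), although Lgr5 RNA was not. The peak 30.9 kb upstream overlapped between lines.

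Among the TCF/LEF genes limma called no peak, whereas edgeR on the recovered reads called 3 of Tcf7l2, as given below. All 4 Tcf7l1 peaks were higher in αTC1 without overlap, the promoter peak (chr6:72738759-72739865) with 19.9 ± 2.13 normalized reads against 8.67 ± 2.23 (log2 fold change -1.14, standard error 0.17), although its RNA overlapped between lines. Tcf7l2 had 8 peaks that pointed both ways. Its promoter peak (chr19:55815748-55816458) ranged from 13.2 to 20.3 normalized reads across αTC1 libraries and from 3.69 to 10.7 across βTC6, a log2 fold change of -1.08 (0.21), and the intronic peak 43.5 kb from an internal start was also higher in αTC1. The intergenic peaks 61.7 and 74.8 kb downstream were higher in βTC6, with 17.5 ± 5.28 against 4.13 ± 1.75 and 6.42 ± 1.77 against 1.31 ± 0.617 normalized reads. These distances, and that of 43.5 kb, are the authors' and are counted from starts inside the gene, so that both peaks lie beyond its GENCODE end. By edgeR on recovered reads these peaks were called more open in βTC6 (log2 fold change 2.07 and 2.26) and the intronic peak more open in αTC1 (-2.12), and limma also called the peak at 61.7 kb in replicates 1 to 3 (2.07) and without replicate 5 of either line (2.01 and 2.07). The Tcf7l2 peak 87.5 kb downstream of the internal start stood at 1 read in all 19 libraries, as did 471 peaks of the table, and its sequence matched 2518 other places in mm9 at 90% identity or more.

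Lef1 had a promoter-near peak that was higher in βTC6 (7.33 ± 2.14 against 2.00 ± 1.07 normalized reads) and upstream peaks 90.5 and 95.9 kb away that were higher in αTC1, again without overlap in any of them. For the promoter-near peak the log2 fold change was 2.04 in replicates 1 to 3 and 0.75 in replicates 4 and 5. Tcf7 had no annotated peak, and the nearest peak in the table lay 49.8 kb from its start site. Thus Tcf7 had no peak at its promoter, while its RNA was read at low levels. These lay near the floor in αTC1 (2, 4 and 6 counts) and at 0.407 FPKM in βTC6.

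The feedback genes had few peaks. At Notum the promoter peak (chr11:120521896-120522209) had 0.420, 0.983, 0.601, 0.546 and 0.433 normalized reads in αTC1 and 5.11, 5.13, 3.78, 5.14 and 3.005 in βTC6, the same order as its RNA, whereas the peak 4.69 kb upstream was higher in αTC1 (8.99 ± 2.74 against 1.84 ± 0.798). Rnf43 had a single peak, at its promoter, which overlapped between lines with 3.18 to 8.85 and 2.05 to 4.69 normalized reads. Nkd1 had no promoter peak. Its peak 67 kb upstream was at 1 read in 4 of 5 αTC1 libraries and had 2.67 to 6.71 normalized reads in βTC6, while the intronic peak 51.3 kb downstream overlapped between lines.

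**Figure D3:**
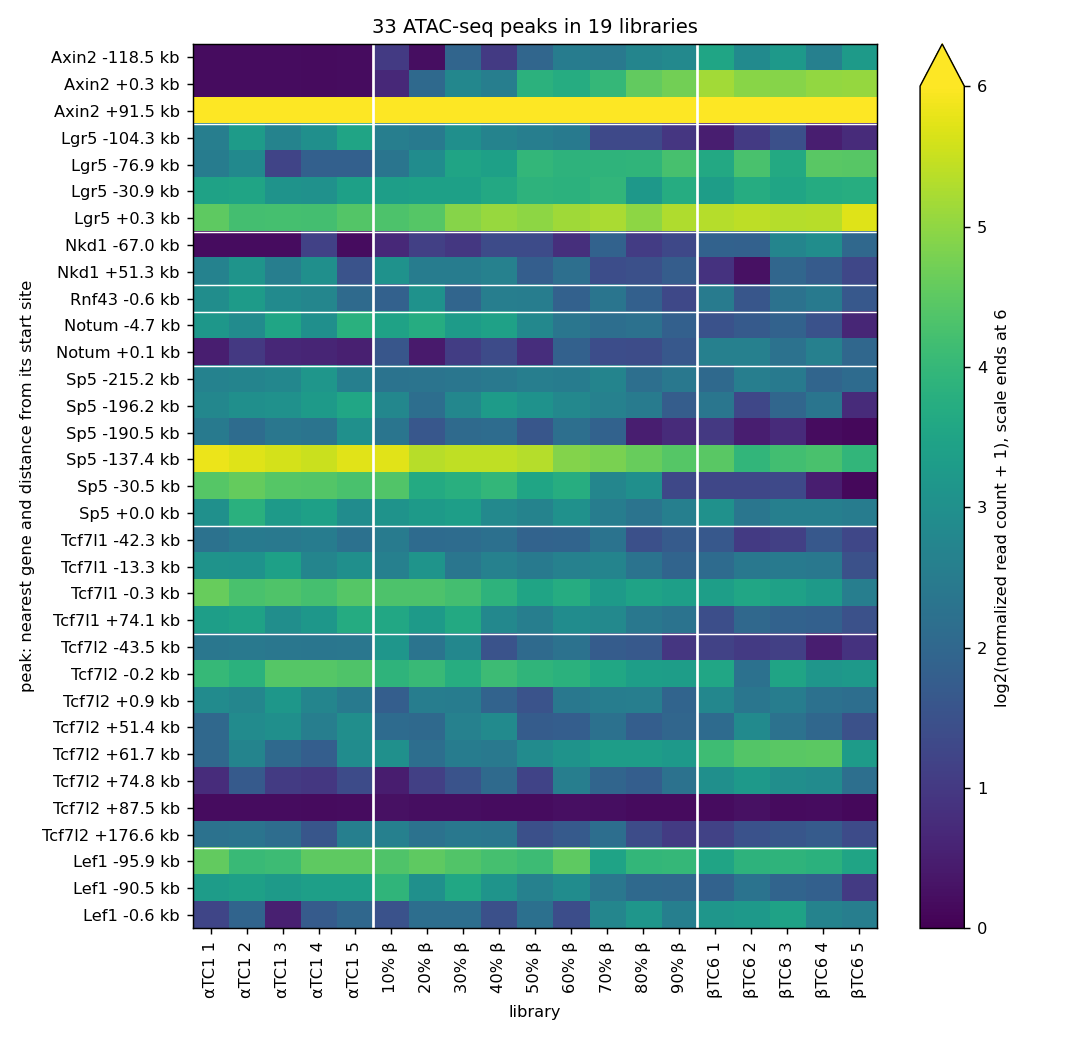
Accessibility of the 33 peaks (rows, by nearest gene and distance from its start site) in 5 αTC1 libraries, 9 mixtures ordered by their βTC6 share and 5 βTC6 libraries, as log2(normalized read count + 1). The Axin2 promoter row runs from dark in αTC1 to bright in βTC6 and the Sp5 row at 30.5 kb the other way, while the Axin2 row at 91.5 kb is above the end of the colour scale in every library.

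The mixtures, which did not enter the comparison of lines, followed composition at most but not all of the peaks. They are dilutions of the same lines, so a slope at a peak that differs between the lines restates that difference. Some named peaks were chosen by it, so their p-values measure the change with composition and are no separate evidence of a line difference. Of the 33 peaks, 7 became more open with the share of βTC6 cells and 15 with the share of αTC1 cells (limma slope over 9 mixtures, FDR under 5% over all peaks), next to 33.5% and 24.8% of all peaks. Of the 9 peaks with βTC6 above, 7 (77.8%) rose with the βTC6 share, and of the 16 with αTC1 above, 12 (75%) rose with the αTC1 share. Over all peaks these shares were 85.7% and 72.3%, and the difference from the members was not tested. No peak with separate lines had a slope that passed the FDR in the opposite direction. Without regard to the FDR, 3 of the 33 slopes (9.09%) had the opposite sign to the lines, next to 11.1% of all peaks, among them that of the Sp5 peak 215 kb upstream (slope 0.15, log2 fold change between lines -0.55). Without the mixtures at 10% and 90%, 5 and 9 peaks passed, next to 23.4% and 14.7% of all peaks.

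The Axin2 promoter peak fell from 25.6 normalized reads at 90% βTC6 cells through 13.4 at 50% to 0.610, or 3 reads, at 10%. Its slope from 0% to 100% βTC6 was 4.54 on the log2 scale (standard error 0.47, limma adjusted p = 5.63e-07). Pearson's r with the βTC6 percentage was 0.951 (exact permutation p = 4.96e-05, 0.000595 after adjustment over 12 named peaks) and Spearman's rho 0.967 (exact permutation p = 0.000165, adjusted 0.00198). Without the outermost mixtures r was 0.949. The peak lay below the mean of the lines weighted by cell share in all 9 mixtures, at a median of 0.635 of that mean. This held for 9.45% of all peaks, 12.1% of those called more open in βTC6 and 35% of the 60 peaks of the chromosome 11 stretch, and its cause was not tested.

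Sp5 and Lgr5 followed composition at their called peaks. The Sp5 peak 30.5 kb upstream rose from 1.48 normalized reads at 90% βTC6 cells to 19.7 at 10%, with a slope of -2.76 (standard error 0.52, limma adjusted p = 0.000226). Its r was -0.836 (exact permutation p = 0.00111, adjusted 0.00334), rho -0.833 (exact permutation p = 0.00827, adjusted 0.0142) and r without the outermost mixtures -0.743. The Lgr5 peaks kept their opposite directions, with a slope of 1.99 (0.35, limma adjusted p = 0.000117) at 76.9 kb and -2.23 (0.52, limma adjusted p = 0.00143) at 104 kb. Their r was 0.900 and -0.830 (exact permutation p = 0.000248 and 0.00719, adjusted 0.00149 and 0.0123), rho 0.883 and -0.75 (exact permutation p = 0.00308 and 0.0255, adjusted 0.0123 and 0.0382), and r without the outermost mixtures 0.846 and -0.810.

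Of the other 8 named peaks, 5 followed composition after adjustment in r and rho. The Tcf7l1 promoter went with the αTC1 share (r = -0.921, rho = -0.933, exact permutation p = 0.000865 and 0.00075, adjusted 0.00334 and 0.0045, r = -0.904 without the outermost mixtures). The Tcf7l2 promoter did so less steeply (r = -0.802, rho = -0.733, exact permutation p = 0.0111 and 0.0311, adjusted 0.0148 and 0.0415, r = -0.778 without the outermost mixtures). The Lgr5 promoter went with the βTC6 share (r = 0.839, rho = 0.867, exact permutation p = 0.00311 and 0.00451, adjusted 0.00648 and 0.0135, r = 0.699 without the outermost mixtures). The Sp5 promoter went with the αTC1 share (r = -0.818, rho = -0.833, exact permutation p = 0.00958 and 0.00827, adjusted 0.0144 and 0.0142, r = -0.870 without the outermost mixtures), as did the Nkd1 peak at 51.3 kb (r = -0.874, rho = -0.85, exact permutation p = 0.00324 and 0.00607, adjusted 0.00648 and 0.0142, r = -0.863 without the outermost mixtures). Both of these overlapped between the pure lines. The Lef1, Notum and Rnf43 promoter peaks did not pass in r or rho (r = 0.631, 0.436 and -0.505, exact permutation p = 0.0722, 0.242 and 0.164, adjusted 0.0866, 0.242 and 0.179; rho = 0.6, 0.45 and -0.6, exact permutation p = 0.0968, 0.23 and 0.0968, adjusted 0.106, 0.23 and 0.106). Without the outermost mixtures their r was 0.507, 0.668 and -0.609. The limma slope of the Lef1 peak did pass, at 1.41 (standard error 0.56, limma adjusted p = 0.0387), and those of the Notum and Rnf43 peaks did not, at 0.72 (0.45, limma adjusted p = 0.1798) and -0.96 (0.54, limma adjusted p = 0.139). These last peaks held 2 to 42 reads in the mixtures.

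**Figure D4:**
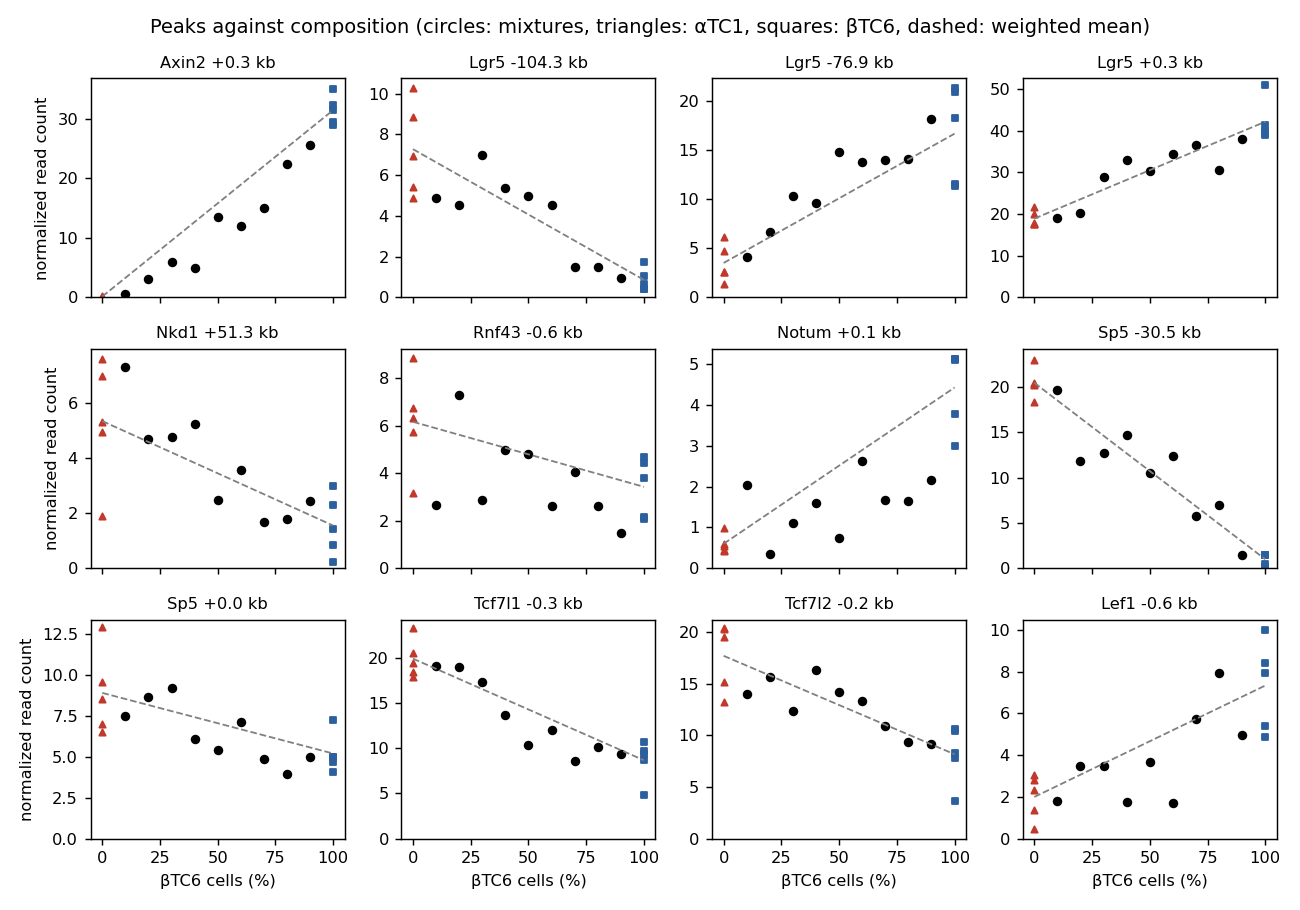
Normalized read counts of the 12 named peaks against the share of βTC6 cells, with 9 mixtures (black circles), 5 αTC1 (red triangles), 5 βTC6 (blue squares) and the weighted mean of the lines (dashed). The Axin2 promoter stays under the dashed line at every composition, and the Sp5 peak at 30.5 kb and the Tcf7l1 promoter decline as βTC6 cells increase.

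Other genes of the pathway were taken from lists by role, which hold 117 genes, of which 66 passed the FPKM filter. Of these 11 were called higher in βTC6 and 5 higher in αTC1, next to 10.2% and 4.08% of all genes tested, and their median log2 fold change was -0.0044 against 0.0094 over all genes. The same shares stand behind each list below. Of the called genes, Lrp5, Fzd7, Ror2, Frzb, Cd44, Tbx3, Sp8 and Myc entered the test through βTC6 alone, and Wnt10a and Sox9 through αTC1 alone. As for Axin2, that is the line where each is high, so that these calls are no evidence of their own. Among the 19 Wnt ligands 3 were tested and 1 was called. Wnt10a was higher in αTC1, at 40.9 ± 5.79 FPKM against 0.337 ± 0.162 (log2 fold change -6.86, standard error 0.25). Wnt4 was the most abundant ligand in both lines, at 60.5 ± 3.16 FPKM for αTC1 against 25.2 ± 4.29 for βTC6 (log2 fold change -1.21), short of the threshold. For ligand secretion, Wls, the carrier that takes Wnt proteins to the cell surface, was called higher in βTC6, at 74.5 ± 3.47 against 2.44 ± 0.251 FPKM (log2 fold change 4.98, standard error 0.10).

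Of 16 receptor genes 11 were tested, and 3 were called, all higher in βTC6, next to 10.2% of all genes tested. On the log2(FPKM + 1) scale all 3 fell under the fold-change threshold (Lrp5 1.661, Fzd7 1.986 and Ror2 1.885). The coreceptor gene Lrp5 had 2.52 ± 0.636 FPKM in βTC6 and 0.1 ± 0.01 in αTC1 (log2 fold change 4.53), Fzd7 4.63 ± 0.568 and 0.417 ± 0.0252 (3.50) and Ror2, a receptor of β-catenin-independent signalling, 4.72 ± 0.497 and 0.547 ± 0.0666 (3.19). Ryk, the most abundant receptor gene, was at 18.1 ± 2.42 FPKM in αTC1 and 15.6 ± 0.811 in βTC6, and the values overlapped. None of the 3 tested R-spondin pathway genes of 7 was called, the most abundant by the mean of both lines being Rspo4, at 2.63 ± 0.534 FPKM in αTC1 and 6.02 ± 2.26 in βTC6. Of 16 inhibitor genes 3 were tested: Frzb was called higher in βTC6 (4.33 ± 0.831 against 0.02 ± 0.0265 FPKM) and Kremen1 higher in αTC1 (40.8 ± 9.25 against 3.90 ± 0.276 FPKM, log2 fold change -3.33).

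β-Catenin and its destruction complex were expressed in both lines, all 18 genes being tested and 2 called. Ctnnb1 itself, which encodes β-catenin, was the most abundant at 121 ± 1.86 FPKM for αTC1 against 78.1 ± 2.23 for βTC6 (log2 fold change -0.55), under the fold-change threshold. Csnk1e, a casein kinase, was called higher in βTC6 (23.6 ± 1.68 against 2.03 ± 0.596 FPKM, log2 fold change 3.62), and Fam123b, which encodes a binding partner of Apc, higher in αTC1 (8.22 ± 0.137 against 1.65 ± 0.276 FPKM, log2 fold change -2.26). On the log2(FPKM + 1) scale Fam123b was at -1.80, under the fold-change threshold. Of 17 cofactor and corepressor genes 16 were tested and 1 was called, Tle6, at 37.9 ± 7.48 FPKM for αTC1 against 3.27 ± 1.49 for βTC6 (log2 fold change -4.13). The most abundant of them was Aes, at 482 ± 46.5 and 313 ± 18.4 FPKM.

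Of 22 further genes known as Wnt targets in other tissues, 10 were tested, with 5 called higher in βTC6 and 1 in αTC1. Over all genes tested these shares were 10.2% and 4.08%. All called genes of this list but Jun entered the test through 1 line alone, as given above, and the list was chosen with earlier results known. Tbx3 and Sp8, a factor gene of the same family as Sp5, had 10.3 ± 1.49 and 10.8 ± 1.60 FPKM in βTC6 and no counts in αTC1, at least 371-fold and 337-fold higher. Cd44 was at 3.69 ± 0.251 against 0.0133 ± 0.0231 FPKM. The others called in βTC6, named after their values were seen, were Myc (7.70 ± 3.83 against 1.01 ± 0.566 FPKM) and Jun (66.7 ± 43.1 against 13.7 ± 0.856 FPKM), which varied widely between βTC6 libraries. Without βTC6 replicate 3, Jun was under the fold-change threshold (log2 fold change 1.78 against 2.36). Sox9 went the other way with 4.24 ± 0.186 FPKM in αTC1 and 0 in βTC6, at least 145-fold lower. Of the 4 ductal cell markers, which include Sox9, Krt7 had the opposite order, at 1.42 FPKM in αTC1 and 35.7 in βTC6. Cdkn1a, the most abundant of the list by the mean of both lines, was at 49.1 ± 1.70 and 53.8 ± 1.97 FPKM and was not called. These genes are known to respond to other signals as well. Of the 51 listed genes under the FPKM filter, 14 were called higher in βTC6 and 5 in αTC1 when the filter was left off, next to 12.8% and 5.21% of all genes, and 7 had no count in any library and could not be called.

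**Figure D5:**
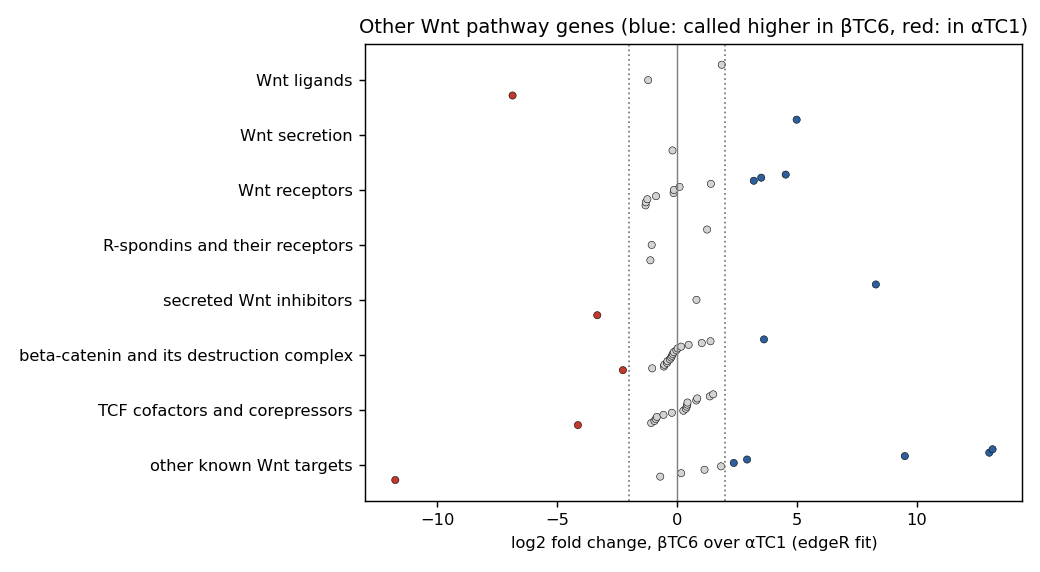
Log2 fold change, βTC6 over αTC1, of the pathway genes tested (points), in 8 lists by role, with dotted lines at -2 and 2. Called genes are blue (11, higher in βTC6) or red (5, higher in αTC1), and the values of Tbx3, Sp8 and Sox9 are fitted against a line with no counts.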

How the data were processed

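The authors deposited TMM-normalized read counts per consensus peak (unit: signal), made by trimming with Trimmomatic 0.32, alignment to mm9 with BWA 0.7.9a, duplicate removal with Picard 1.95, peak calling per library with MACS2 2.1.0, merging of peaks found in at least 2 samples with DiffBind 2.2.5 and annotation with HOMER 4.6. In each library 100% of the values are whole multiples of the lowest to within 0.01 reads, so whole reads were recovered, and edgeR on these reads called 13794 peaks more open in βTC6 and 5739 in αTC1. The deposited expected counts and FPKM values came from RSEM 1.2.12 after Trim Galore 0.40 and Bowtie2 on Ensembl transcripts, from a stranded kit. Columns holding the authors' own peak classes were not used, and 0 sample columns were left unmatched.

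The members, lists and rules were chosen with earlier results of these data known, so differences of the members between lines are given without p-values. Genes were tested with edgeR 4.0.16 (glmQLFit, glmQLFTest, TMM) on expected counts rounded to whole numbers, and peaks with limma 3.58.1 (trend, pseudocount 1), in R 4.3.3, with Benjamini-Hochberg adjustment over all features. Fold changes have βTC6 in the numerator. For peaks the standard error is the moderated one of limma. For genes it is the size of the log2 fold change over the root of edgeR's F. Scripts were tested on simulated data. Correlations have two-sided exact permutation tests over 9 mixtures. Ratios of summed counts have exact conditional intervals at 95%. The named peaks were, for each gene, the peak nearest a start site and the called peak of largest change in each direction. From each list, up to 3 called genes per direction and the most abundant gene were named. Sequences and annotation are from mm9 (NCBIM37) and GENCODE vM1, read with pysam 0.24.0, and compared with the genome with BLAST+ 2.17.0 (at least 90% identity over at least 50% of a peak). RefSeq promoters were matched for motif letters only. Alternatives covered normalization, filters, pseudocounts, tests, replicates 1 to 3 and 4 and 5 apart, a block and left-out libraries.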

Additional observations from a re-analysis of the deposited data

Results flagged for a closer look

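Among the 33 peaks, 62 groups of 5 libraries had more than 3 reads in some library and were searched for a value far from the rest, which chance gives in about 1 in 20 groups. In 4 groups the highest value stood apart by a Dixon ratio over 0.71. The Lgr5 promoter peak had 50.9 normalized reads in βTC6 replicate 5 against 39.1 to 41.4 in the other replicates. The Nkd1 peak 67 kb upstream had 1.23 in αTC1 replicate 4, from 9 reads, against 0.14 to 0.15, or 1 read, in the others. The Sp5 peak 215 kb upstream had 7.92 in αTC1 replicate 4 against 5.06 to 5.86. The Sp5 promoter peak had 7.24 in βTC6 replicate 1 against 4.10 to 5.00, and without that library its lines would not overlap. The cause was not tested for any of them.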

How the results depend on the processing

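Among the genes followed, 1 called higher in βTC6 and 0 in αTC1 became 3 and 4 without the FPKM filter. No member was tested at an FPKM of at least 5, which leaves 0 called higher in βTC6, and limma on log2(FPKM + 1) also called 0, with Axin2 at 1.85. Of the 3 and 2 peaks called, a pseudocount of 0.5 gave 5 and 4, a pseudocount of 5 gave 1 and 1, and edgeR on recovered reads 7 and 5. The αTC1 count was 4 under quantile normalization, 1 among the 18 peaks with a mean of at least 5 normalized reads, 1 in replicates 1 to 3 and 4 in replicates 4 and 5. Leaving out 1 library gave 2 to 4 and 2 to 3 peaks. Notum's promoter passed with a pseudocount of 0.5 (2.17) and on recovered reads (2.84), and Lef1's in replicates 1 to 3 (2.04). On recovered reads the peaks of Nkd1 at 67 kb (3.45), Notum at 4.69 kb (-2.33) and Sp5 at 191 kb (-3.33) passed as well. The Lgr5 peaks at 76.9 and 104 kb fell short with a pseudocount of 5 (1.35 and -1.05) and the former under quantile normalization (1.78). In the mixtures, the 15 peaks that went with αTC1 became 9 without the 10% and 90% mixtures, where the Lef1 and Tcf7l2 promoters no longer passed (1.47 and -0.96), and the 7 that went with βTC6 became 4 among the 16 with a mean of at least 5. For the pathway lists, 11 and 5 calls became 25 and 10 without the filter, 5 and 4 at an FPKM of at least 5 and 7 and 4 on log2(FPKM + 1), and 10 to 11 and 5 when 1 library was left out (10 without βTC6 replicate 3). Neither Axin2, nor the genes named from the lists, nor the named peaks and slopes changed direction under these settings. The other members were under the FPKM filter and were not followed in this way. The Lef1 ratio, βTC6 over αTC1, went from 0.648 to 2.69 without αTC1 replicate 1. The other settings, DESeq2, RLE and spike-in scaling among them, left the counts within 1.5 times. Leaving out the repetitive Tcf7l2 peak and the Axin2 peak 91.5 kb downstream, which has only partial matches elsewhere (BLAST e-value up to 1e-10), a choice made after seeing the data, gave 3 and 2 calls and 7 and 14 mixture slopes.

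Same-numbered replicates of the lines did not deviate together (correlations of -0.028 to 0.069), so the numbers were not taken as pairs. With the replicate number as a block, calls stayed at 1 and 0 genes, 3 and 2 peaks and 11 and 5 listed genes. Depth limits most members' RNA, at or near the floor of 3 counts in at least 1 line, and peaks at 1 read. The causes of these changes were not tested.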
